A study of Sus scrofa with 35 samples.

Results

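The proteasome is the barrel-shaped protease that degrades ubiquitin-tagged proteins, and its subunit genes were followed here in longissimus dorsi muscle from the back of pigs under thermoneutral (TN) or heat stress (HS) conditions. Members were the non-control probes whose gene name in the scanner files begins, in capitals, with PSMA, PSMB, PSMC or PSMD and a digit, leaving out the interferon-inducible PSMB8, PSMB9 and PSMB10. The rule found 31 gene names on 80 probes, among 16107 gene names and 60305 non-control probes in all, and each gene was represented by its brightest probe. One of the 31, PSMC3IP, takes its name from a partner protein of PSMC3 and encodes no proteasome subunit, so it is given apart. The brightest probe of 30 of the 31 genes was kept, which required a signal well above background in 75% or more of the animals of some group. The exception was PSMD5, an assembly chaperone. This left 29 proteasome genes for the tests.

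The 35 arrays came from castrated pigs, 1 array per animal, in 6 groups. These were Creole TN (n = 6), Creole HS (n = 6), F1 TN (n = 6), F1 HS (n = 5), Large White TN (n = 6) and Large White HS (n = 6), where F1 pigs are the cross of Creole and Large White. TN animals were sampled at 24 °C before the challenge, and HS animals after up to 5 days at a temperature that the sample labels give as 30 °C and the growth protocol as 32 °C. TN and HS animals were therefore slaughtered on different days, so day and temperature cannot be told apart. The share of probes well above background lay between 58.4% and 75.9% per array, and no spot was saturated. Before normalisation the 75th percentile intensity ran from 425.5 to 677.5 on TN arrays and from 470.9 to 785.4 on HS arrays. The number of arrays limits the precision, and so does the housing: per the study's methods pigs of a breed included littermates and shared pens, neither of which the labels give, so animals were treated as independent and the p-values do not allow for litter or pen. Muscle fibre markers averaged between 17.97 and 18.36 log2 intensity on every array.

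The core particle (20S) is a stack of alpha and beta rings, and its beta subunits PSMB5, PSMB6 and PSMB7 carry the chymotrypsin-like, caspase-like and trypsin-like active sites. The regulatory particle (19S) sits on the core. Its base holds the PSMC ATPases that unfold substrates, and its lid removes the ubiquitin chain. In muscle this system is the main route of myofibrillar protein breakdown, fed by muscle ubiquitin ligases such as FBXO32 (atrogin-1) and TRIM63 (MuRF1).

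Heat stress was compared with thermoneutrality first over all breeds. None of the 29 proteasome genes passed an adjusted p of 0.05 (limma over all kept probes, Benjamini-Hochberg), and 3 of 29 had an unadjusted p below 0.05. In the same test 16% of all kept probes were called, and 17.6% of gene names by their brightest probe. Of those gene names 33.4% had an unadjusted p below 0.05. The HS minus TN differences of the 29 genes ran from -0.18 (PSMD3) to 0.11 (PSMC1) on the log2 scale, with a median of -0.05 and a median SE of 0.06. For 24 of the 29 genes the whole 95% interval lay within 0.25 log2 of zero, and the intervals together spanned -0.34 to 0.30. The sign was negative for 22 of the 29 genes, against 57.7% of gene names by their brightest probe, whose median difference was -0.03. That sign depended on the scaling: 28 of 29 were negative when each array was scaled on its 75th percentile, 17 of 29 on its median, and 5 of 29 on the spike-in controls. On these scales the median over all kept probes moved by -0.06, 0.02 and 0.10 log2 relative to quantile normalisation.

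**Figure D1:**
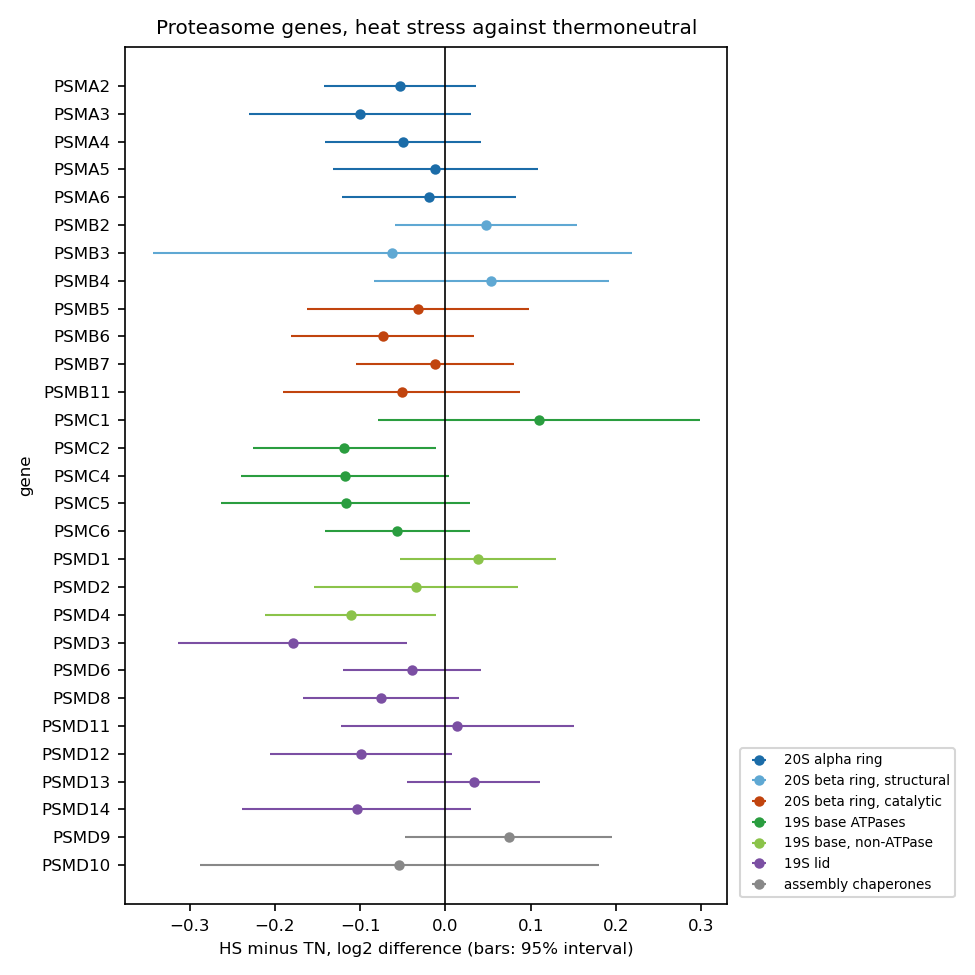
HS minus TN log2 difference (x axis) of the 29 proteasome genes (y axis), coloured by role, with bars for the 95% interval of the limma fit over 35 arrays. The points lie between -0.18 and 0.11, and the widest interval is that of PSMB3.

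For each catalytic subunit the TN and HS ranges overlapped. PSMB5 ranged from 11.18 to 11.97 log2 intensity (median 11.41) in the 18 TN animals and from 11.22 to 11.72 (median 11.39) in the 17 HS animals. The HS range fell inside the TN range, and the difference was -0.03 (SE 0.06, 95% interval -0.16 to 0.10, adjusted p = 0.776 by limma). PSMB6 ranged from 14.77 to 15.45 (median 15.05) in TN and from 14.81 to 15.30 (median 14.98) in HS. Its difference was -0.07 (SE 0.05, interval -0.18 to 0.03, adjusted p = 0.362 by limma), and 12 of 17 HS animals were below the TN mean of their breed. PSMB7 ranged from 13.08 to 13.43 (median 13.21) in TN and from 13.0025 to 13.61 (median 13.20) in HS, a difference of -0.01 (SE 0.05, interval -0.10 to 0.08, adjusted p = 0.887 by limma). PSMB11, the thymus-specific catalytic subunit, was dim, with a mean of 6.28 over all animals, and differed by -0.05 (SE 0.07).

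The remaining core subunits gave no call either. All 5 alpha-ring genes with a kept probe (PSMA2, PSMA3, PSMA4, PSMA5 and PSMA6), whose ring gates the entry to the core, had differences between -0.10 (PSMA3) and -0.01 (PSMA5). Among the structural beta subunits PSMB2 differed by 0.05 (SE 0.05), PSMB4 by 0.05 (SE 0.07) and PSMB3 by -0.06 (SE 0.14). The 12 PSMB4 probes were split, with 6 negative and 6 positive differences between -0.07 and 0.05.

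In the base of the regulatory particle, 4 of 5 ATPase genes had negative differences. PSMC2 ranged from 11.16 to 12.02 (median 11.74) in TN and from 11.29 to 11.76 (median 11.62) in HS, and 15 of 17 HS animals were below the TN mean of their breed. The groups overlapped, and the difference was -0.12 (SE 0.05, unadjusted p = 0.0311 and adjusted p = 0.120 by limma). PSMC4 and PSMC5 both differed by -0.12, with SEs of 0.06 and 0.07. PSMC6 differed by -0.06 (SE 0.04) on its brightest probe. All 9 PSMC6 probes were negative, and 1 of them, O9672, was called at -0.13 (SE 0.04, adjusted p = 0.0384 by limma). That was the only one of the 79 kept member probes called between HS and TN. Its sequence is shown because it carries this call:
PSMC6 O9672: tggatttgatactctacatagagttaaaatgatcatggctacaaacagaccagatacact

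The O9672 level ranged from 10.30 to 10.93 (median 10.76) in TN and from 10.38 to 10.77 (median 10.60) in HS. With single arrays left out in turn the adjusted p of O9672 ran from 0.00276 to 0.0638 by limma, and the call was lost in 14 of 35 fits. The other 8 PSMC6 probes differed by -0.03 to -0.09 without a call. PSMC1 went the other way on its brightest probe, at 0.11 (SE 0.09), whereas its other 3 probes gave -0.09, -0.09 and -0.14, none called. The sign of PSMC1 therefore rests on the choice of probe.

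Of the non-ATPase base subunits, PSMD4, a ubiquitin receptor, ranged from 12.82 to 13.38 (median 13.24) in TN and from 12.91 to 13.25 (median 13.09) in HS. Its difference was -0.11 (SE 0.05, unadjusted p = 0.0304 and adjusted p = 0.118 by limma), and all 3 of its probes were negative. PSMD1 and PSMD2, the large scaffold subunits, differed by 0.04 (SE 0.05) and -0.03 (SE 0.06). Of the 8 PSMD1 probes 6 were negative and 2 positive, between -0.12 and 0.04, so the sign of PSMD1 rests on the choice of probe.

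In the lid, 5 of 7 genes had negative differences. PSMD3, a structural lid subunit measured by 1 dim probe, came closest to a call and is described for that reason. It ranged from 6.79 to 7.57 (median 7.11) in TN and from 6.66 to 7.47 (median 6.84) in HS, and 15 of 17 HS animals were below the TN mean of their breed. The difference was -0.18 (SE 0.07, interval -0.31 to -0.04, adjusted p = 0.0594 by limma). PSMD14, the deubiquitinase of the lid, differed by -0.10 (SE 0.07), and PSMD12 by -0.10 (SE 0.05). PSMD13 was among the steadiest genes, with a within-group SD of 0.10, and differed by 0.03 (SE 0.04). The assembly chaperones PSMD9 and PSMD10 differed by 0.07 (SE 0.06) and -0.05 (SE 0.12).

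The choice of scaling ended the absence of calls. With 75th percentile scaling 4 of 29 genes were called, all lower in HS (PSMA3, PSMB6, PSMD3 and PSMD4), where 22.4% of all kept probes were called. PSMB6 was then -0.19 (adjusted p = 0.00791 by limma) and PSMD4 -0.16 (adjusted p = 0.0282 by limma). With spike-in scaling none was called and 24 of 29 differences were positive. Leukocyte markers were also higher in HS for 15 of 17 genes, 8 of them called, and their mean ran from 7.78 to 10.26 in TN and from 9.09 to 10.64 in HS. With that mean as a covariate 27 of 29 proteasome genes were negative and PSMD14 alone was called, where 5.51% of kept probes were. Muscle fibre markers were higher in HS for 2 of 10 genes (2 called), with a mean of 18.23 in TN and 18.16 in HS. Connective tissue markers were higher in HS for 12 of 12 genes (5 called, median 0.33), and adipocyte markers for 6 of 6 (0 called). Nerve markers were higher for 4 of 6 (2 called), endothelial markers for 1 of 6 (1 called) and blood markers for 1 of 3 (1 called). These counts take calls in either direction, and the part of these markers in the proteasome values was not tested. Without 1 of Creole TN replicate 3, Creole HS replicate 2, F1 TN replicate 2, F1 HS replicate 5 or Large White TN replicate 6, PSMD3 was called, and without Large White TN replicate 1 PSMC2 and PSMD4 were. In bulk muscle, fewer cells of a type and less RNA per cell cannot be told apart.

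Some proteasome genes are named on the array in lower or mixed case and fall outside the rule. Read in any letter case, the names added PSMB1, PSMC3 and PSMD7, and these were examined after the files had been seen. PSMD7, a lid subunit, was called at -0.13 (SE 0.04, interval -0.22 to -0.05, adjusted p = 0.0302 by limma) on its single probe. The array design annotates that probe with a human accession, and it was not checked here against a pig transcript. The call was lost without Large White HS replicate 1 or without Creole TN replicate 6 (adjusted p = 0.0509 and 0.0503 by limma), and with median or spike-in scaling, array weights and the brightness and leukocyte covariates (adjusted p from 0.0536 to 0.815 by limma). It ranged from 12.87 to 13.34 (median 13.15) in TN and from 12.79 to 13.20 (median 13.04) in HS. PSMC3 differed by -0.15 (SE 0.07, adjusted p = 0.167 by limma) and PSMB1 by 0.01 (SE 0.06, adjusted p = 0.958 by limma).

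Within breeds, no proteasome gene was called in Creole, F1 or Large White, where 1.91%, 0.00482% and 0.00482% of kept probes were called. Unadjusted p fell below 0.05 for 2, 0 and 1 of the 29 genes, against 23.2%, 8.92% and 17% of gene names by their brightest probe. PSMD4 in Creole pigs ranged from 13.12 to 13.37 (median 13.31) in TN and from 12.97 to 13.17 (median 13.04) in HS. The difference was -0.23 (SE 0.08, adjusted p = 0.112 by limma), and the values of the 2 groups met between 13.12 and 13.17. PSMC5 and PSMC4 in Creole differed by -0.25 (SE 0.12) and -0.21 (SE 0.10). PSMD3 in Large White differed by -0.32 (SE 0.11, adjusted p = 0.158 by limma). The test of whether the response differed between breeds called no gene among the 29 and 0% of all kept probes. The smallest interaction p among the proteasome genes was 0.148 for PSMD4, followed by 0.272 for PSMD13 and 0.299 for PSMB6, each with an adjusted p of 0.963 in limma.

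**Figure D2:**
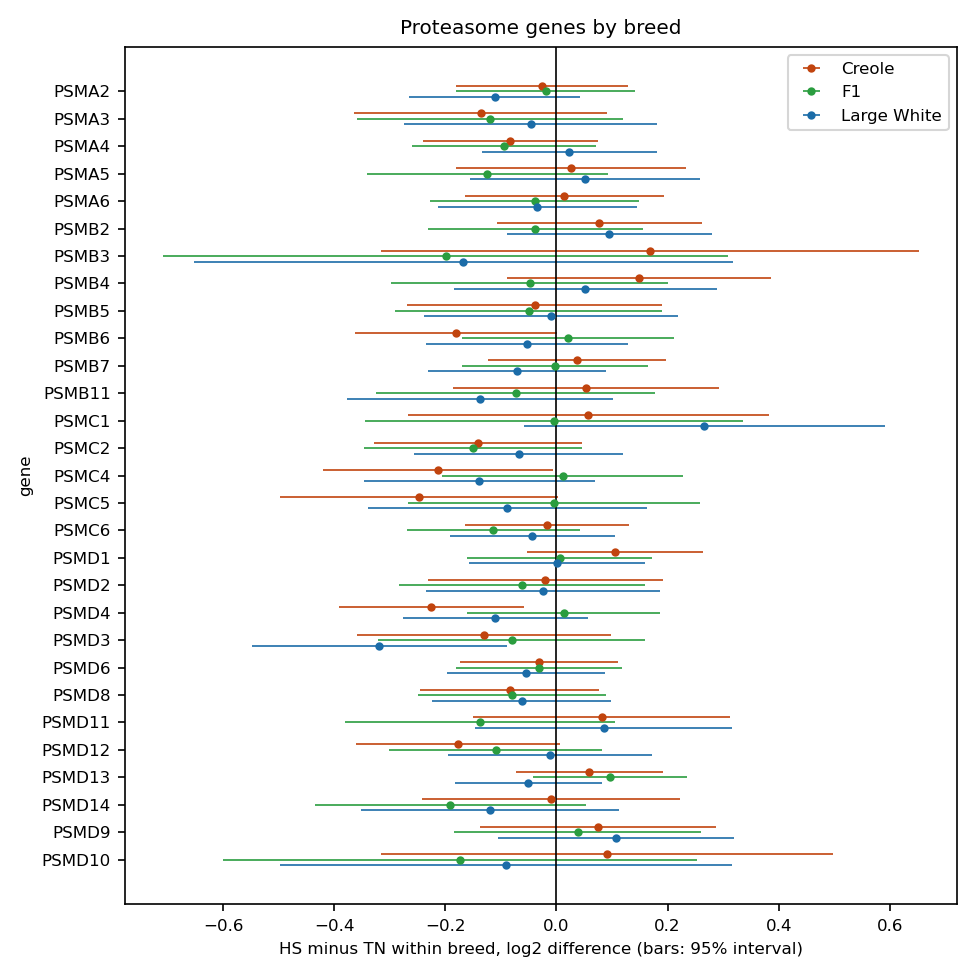
HS minus TN log2 difference within Creole, F1 and Large White pigs (x axis) for the 29 proteasome genes (y axis), with bars for the 95% interval. No gene was called in any breed, and the intervals of the 3 breeds overlap for every gene.

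Breeds were compared over both temperatures. Between Creole and Large White none of the 29 genes was called by its brightest probe, where 3.64% of kept probes were called. An unadjusted p below 0.05 was found for 4 of the 29, against 15.9% of gene names by their brightest probe. Among all 79 kept member probes 2 were called, both for PSMB6, the caspase-like catalytic subunit, and their sequences are shown for that reason:
PSMB6 A_72_P073716: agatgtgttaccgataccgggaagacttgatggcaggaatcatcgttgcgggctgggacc
PSMB6 A_72_P621004: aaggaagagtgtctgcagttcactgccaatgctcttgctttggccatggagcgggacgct

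These 60-base probes read separate stretches of the transcript, with no shared run longer than 6 bases. On A_72_P073716 the level ranged from 13.81 to 14.36 (median 14.05) in 12 Creole and from 13.63 to 14.04 (median 13.85) in 12 Large White pigs. The probe was higher in Creole by 0.22 (SE 0.06, adjusted p = 0.0411 by limma). On A_72_P621004 it ranged from 14.23 to 14.96 (median 14.61) in Creole and from 14.19 to 14.51 (median 14.31) in Large White, and was higher in Creole by 0.25 (SE 0.07, adjusted p = 0.0495 by limma). The brightest PSMB6 probe, O9283, ranged from 14.89 to 15.41 (median 15.16) in Creole and from 14.81 to 15.13 (median 14.95) in Large White. Its difference was 0.21 (SE 0.06, adjusted p = 0.0587 by limma), and the last probe, A_72_P633664, gave 0.23 (SE 0.08, adjusted p = 0.0918 by limma). All 4 PSMB6 probes were thus higher in Creole by similar amounts on either side of the threshold, and the breed ranges overlapped on the 3 probes whose ranges are given. On each of the 5 slides the O9283 mean was higher in Creole, by 0.07 to 0.27. Slide 5 held 1 Creole HS pig against 2 Large White TN pigs, so breed and temperature cannot be told apart there. With single arrays left out in turn the call was lost in 13 of 35 fits for A_72_P073716 and in 26 of 35 for A_72_P621004. At TN alone the O9283 difference was 0.27 (SE 0.09) and at HS alone 0.15 (SE 0.09).

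PSMC1 and PSMB3 had the largest positive breed differences. PSMC1 ranged from 14.54 to 15.08 (median 14.78) in Creole and from 14.03 to 15.11 (median 14.39) in Large White, and Creole exceeded it by 0.36 (SE 0.11, adjusted p = 0.0643 by limma). Its other 3 probes gave 0.01, 0.12 and 0.15, with adjusted p from 0.491 to 0.950 by limma. PSMD10, an assembly chaperone, differed by -0.31 (SE 0.14, adjusted p = 0.257 by limma). PSMB6 was called by its brightest probe without 1 of Large White HS replicate 1, Creole HS replicates 3, 4 or 5, or F1 TN replicate 5, PSMC1 without 1 of Large White HS replicates 4 or 5 or Large White TN replicate 6, and both without F1 TN replicate 2. With slide as a fixed block PSMB6 and PSMC1 both passed the threshold, at adjusted p = 0.0172 and 0.0469 by limma.

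The other breed contrasts gave no call among the 29 genes. Between F1 and Large White 0.525% of kept probes were called and 1 proteasome gene, PSMB6, had an unadjusted p below 0.05, at 0.13 (SE 0.07). Between F1 and Creole 0.477% were called and 2 genes were below 0.05, PSMC1 at -0.36 (SE 0.11) and PSMD8 at -0.11 (SE 0.06). Against the midpoint of the parental breeds 0.246% were called, and PSMD8 alone was below 0.05, at -0.11 (SE 0.05). Of gene names by their brightest probe 10.8%, 8.91% and 7.19% had an unadjusted p below 0.05 in these contrasts, in the order given. The contrasts share the same animals.

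**Figure D3:**
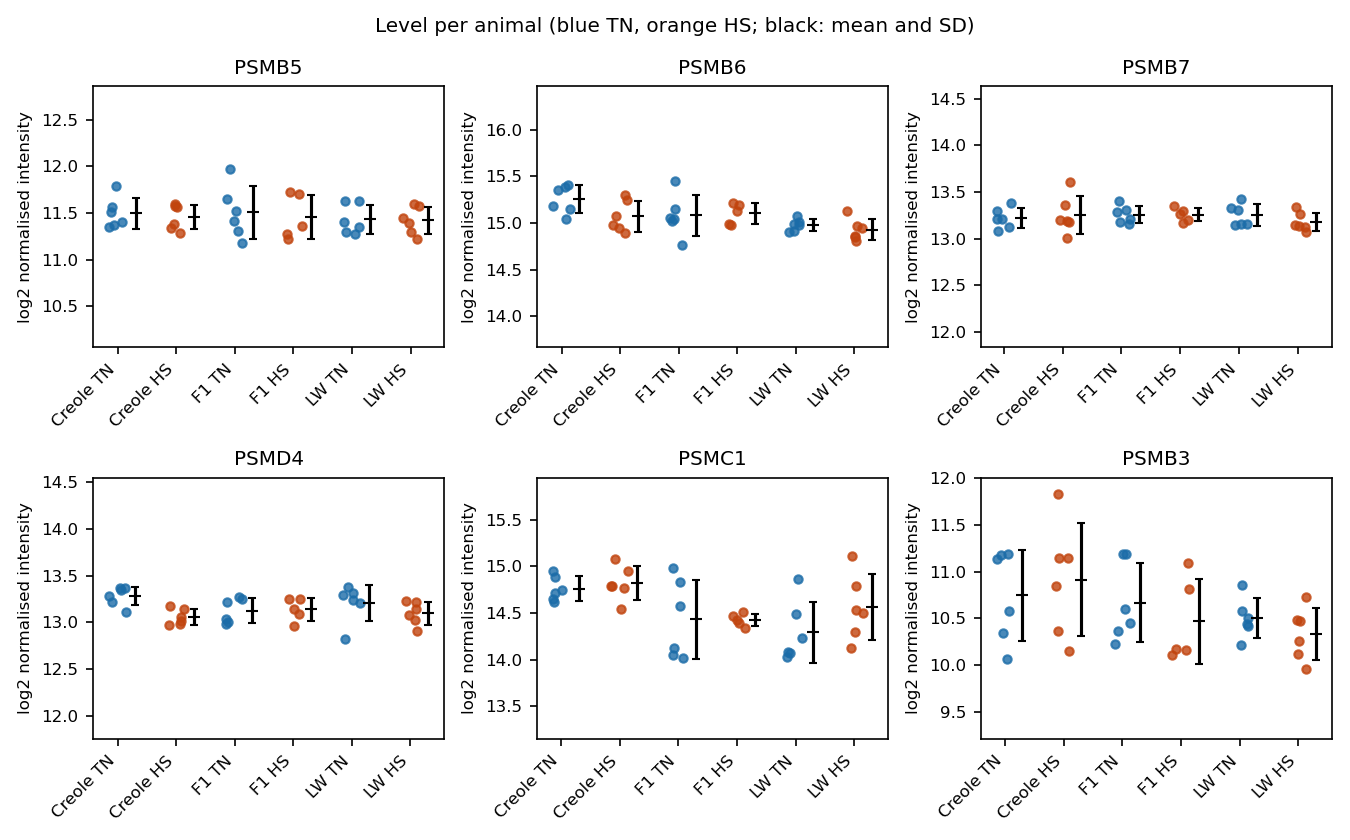
Log2 normalised intensity (y axis) per animal in the 6 groups (x axis) for the catalytic subunits PSMB5, PSMB6 and PSMB7 and for PSMD4, PSMC1 and PSMB3, with the mean and SD in black and a y range of the same height in each panel. PSMB7 is the steadiest of the 6 genes, and PSMB3 the most spread.

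PSMB3 stood out by its spread between animals. Its pooled within-group SD was 0.43 log2, above that of 89.5% of gene names. The median was 0.17 for the 29 proteasome genes and 0.22 for all gene names with a kept brightest probe. By group the PSMB3 SD was 0.49 and 0.60 in Creole TN and HS, 0.42 and 0.45 in F1, and 0.21 and 0.28 in Large White. Levels ran from 9.95 in a Large White HS pig to 11.83 in a Creole HS pig. In Creole pigs they ran from 10.06 to 11.19 (median 10.85) in TN and from 10.15 to 11.83 (median 10.995) in HS. In F1 TN pigs they ran from 10.22 to 11.19 (median 10.52), and the 5 F1 HS pigs were at 10.11, 10.16, 10.17, 10.81 and 11.09. In Large White pigs they ran from 10.21 to 10.85 (median 10.47) in TN and from 9.95 to 10.72 (median 10.36) in HS. The single highest animal was a Creole pig, the next were F1 TN and Creole pigs between 11.15 and 11.19, and the ranges of all 6 groups overlapped. The Creole minus Large White difference was 0.41 (SE 0.17, adjusted p = 0.193 by limma). On slides 1, 2, 3, 4 and 5 it was 0.66, 0.79, 0.13, 0.37 and -0.28. Slide 5 held 1 Creole and 2 Large White pigs.

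The 2 PSMB3 probes read opposite ends of the coding sequence. Each is shown over its coding part only, with the start codon (ATG) in capitals in the first and the stop codon (TAG) in the second:
PSMB3 A_72_P394728: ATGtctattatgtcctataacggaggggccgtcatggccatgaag
PSMB3 O13284: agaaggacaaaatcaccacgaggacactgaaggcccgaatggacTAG

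After subtraction of the group means the 2 probes moved together over the 35 arrays, with Pearson r = 0.954 and Spearman rho = 0.914 (permutation p = 1e-05 for both, the smallest that 100000 permutations can give, and 1.7e-05 after adjustment over 5 probe pairs). Without the 2 arrays farthest from the median, r was 0.938. The next widest genes behaved alike: r was 0.861 (rho 0.804) between the 2 PSMD10 probes, and 0.834 (rho 0.783), 0.629 (rho 0.568) and 0.581 (rho 0.619) between the brightest PSMC1 probe and its other 3. Adjusted permutation p was at most 5e-04 in these, and r without the 2 farthest arrays ran from 0.546 to 0.824. The second PSMB3 probe gave a breed difference of 0.42 (SE 0.16, adjusted p = 0.169 by limma).

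**Figure D4:**
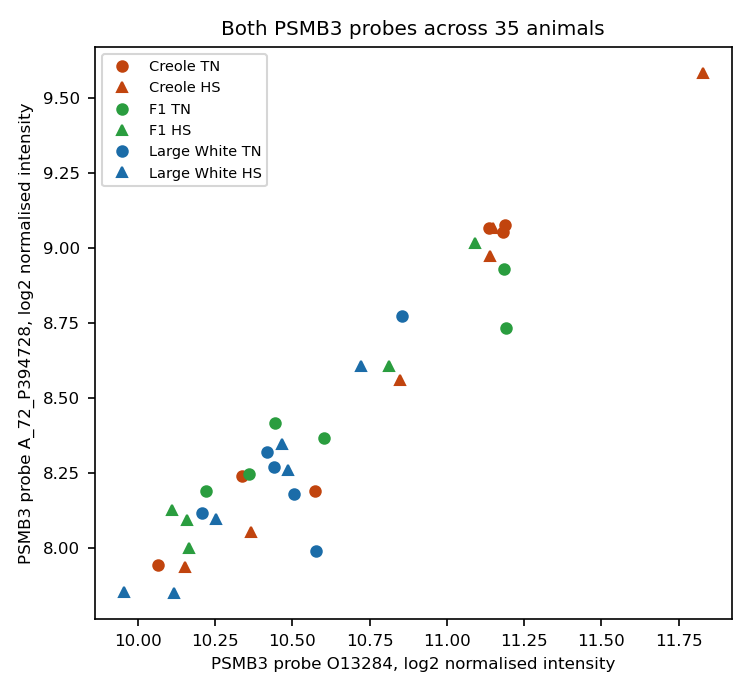
Log2 normalised intensity of PSMB3 on probe O13284 (x axis) and probe A_72_P394728 (y axis), 1 point per animal, coloured by breed, with circles for TN and triangles for HS. The 35 animals lie along 1 line, with Pearson r = 0.954 after subtraction of the group means.

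Deviations of proteasome genes from their group means were mostly, but not in every role, positively correlated. Over the 406 pairs of the 29 genes the median correlation of deviations from the group means was 0.30, and 73.9% of pairs were positive. Over all pairs of 13137 gene names the median was 0.01, and 51.2% of pairs were positive. These are descriptions across the same 35 arrays, whose genes share labelling and normalisation. The median was 0.58 within the alpha ring (10 pairs, all positive) and 0.73 among PSMB2, PSMB3 and PSMB4 (3 pairs). It was 0.20 among the ATPases and 0.14 in the lid. Among PSMB5, PSMB6, PSMB7 and the dim, thymus-specific PSMB11 it was -0.23, with 33.3% of 6 pairs positive. The tightest pair was PSMA5 with PSMB2, at 0.88. Median correlations with the other proteasome genes were -0.21 for PSMB5 and -0.15 for PSMB11, against 0.49 for both PSMB6 and PSMB7, and were also negative for PSMD3 (-0.17), PSMC5 (-0.11) and PSMD6 (-0.05). PSMB5 correlated with PSMB6 at -0.48. PSMB5, PSMB11, PSMD3 and PSMC5 were each read by 1 probe, PSMD6 and PSMB7 by 2, and PSMB6 by 4. PSMA2 and PSMD8, also read by 1 probe, had positive medians of 0.38 and 0.56. The part of single probes in these correlations was not tested.

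Genes around the proteasome were taken from 8 lists, of which 43 genes had a kept probe. Between HS and TN 1 of the 43 was called higher and 4 lower, against 16% of all kept probes called. RPS27A, which encodes ubiquitin fused to a ribosomal protein, ranged from 16.40 to 16.86 (median 16.63) in TN and from 16.63 to 16.95 (median 16.87) in HS, and rose by 0.18 (SE 0.04, adjusted p = 0.00456 by limma). UFD1L, a partner of the unfoldase VCP, fell by 0.21 on the log2 scale (SE 0.04, adjusted p = 0.00177 by limma). Its level ran from 9.55 to 10.05 (median 9.77) in TN and from 9.49 to 9.74 (median 9.58) in HS, and all 5 of its probes were called lower. UCHL5, a deubiquitinase bound to the regulatory particle, fell by 0.20 (SE 0.06, adjusted p = 0.0156 by limma), again with 5 of 5 probes called. STUB1, the chaperone-linked ligase CHIP, fell by 0.22 (SE 0.07, adjusted p = 0.0214 by limma), and ASB2, a muscle ubiquitin ligase adaptor, fell by 0.40 (SE 0.13, adjusted p = 0.0340 by limma), each on 1 probe. MUSTN1 stood in the muscle ligase list although it is no ligase. VCP itself differed by 0.01 (SE 0.05). Within Creole 2 of the 43 were called, both lower, where 1.91% of kept probes were called. These were UFD1L (adjusted p = 0.0344 by limma) and STUB1 (adjusted p = 0.0476 by limma). In F1 and Large White 0 of the 43 were called. In Creole, F1 and Large White in turn, UFD1L differed by -0.30, -0.12 and -0.20, and UCHL5 by -0.33, -0.03 and -0.23. STUB1 differed by -0.40, -0.03 and -0.22, ASB2 by -0.77, -0.08 and -0.32, and RPS27A by 0.22, 0.22 and 0.09.

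The muscle ligases FBXO32 and TRIM63 differed by 0.09 (SE 0.17) and 0.02 (SE 0.12) between HS and TN over all breeds. Within breeds FBXO32 differed by -0.40 (SE 0.26) in Creole, 0.73 (SE 0.27) in F1 and -0.02 (SE 0.26) in Large White, with an interaction p of 0.0168 (adjusted p = 0.963 by limma). TRIM63 differed by -0.24 (SE 0.19) in Creole, -0.12 (SE 0.19) in F1 and 0.41 (SE 0.19) in Large White, with an interaction p of 0.0431 (adjusted p = 0.963 by limma). Neither gene was called in a breed or in the interaction. The immunoproteasome subunits PSMB8, PSMB9 and PSMB10, which replace the catalytic subunits under interferon, differed by 0.20 (SE 0.25), 0.16 (SE 0.18) and 0.02 (SE 0.16). Their levels varied widely between animals, with PSMB8 from 8.39 to 11.87 in TN and from 8.74 to 11.95 in HS. The PA28 activator genes PSME1 and PSME2 differed by 0.14 (SE 0.06, unadjusted p = 0.0346 and adjusted p = 0.128 by limma) and 0.04 (SE 0.10), and the core assembly factor POMP by 0.01 (SE 0.08). NFE2L1, the factor that raises proteasome gene transcription when proteasome activity falls, differed by 0.07 (SE 0.06), and NFE2L2 by -0.04 (SE 0.07).

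**Figure D5:**
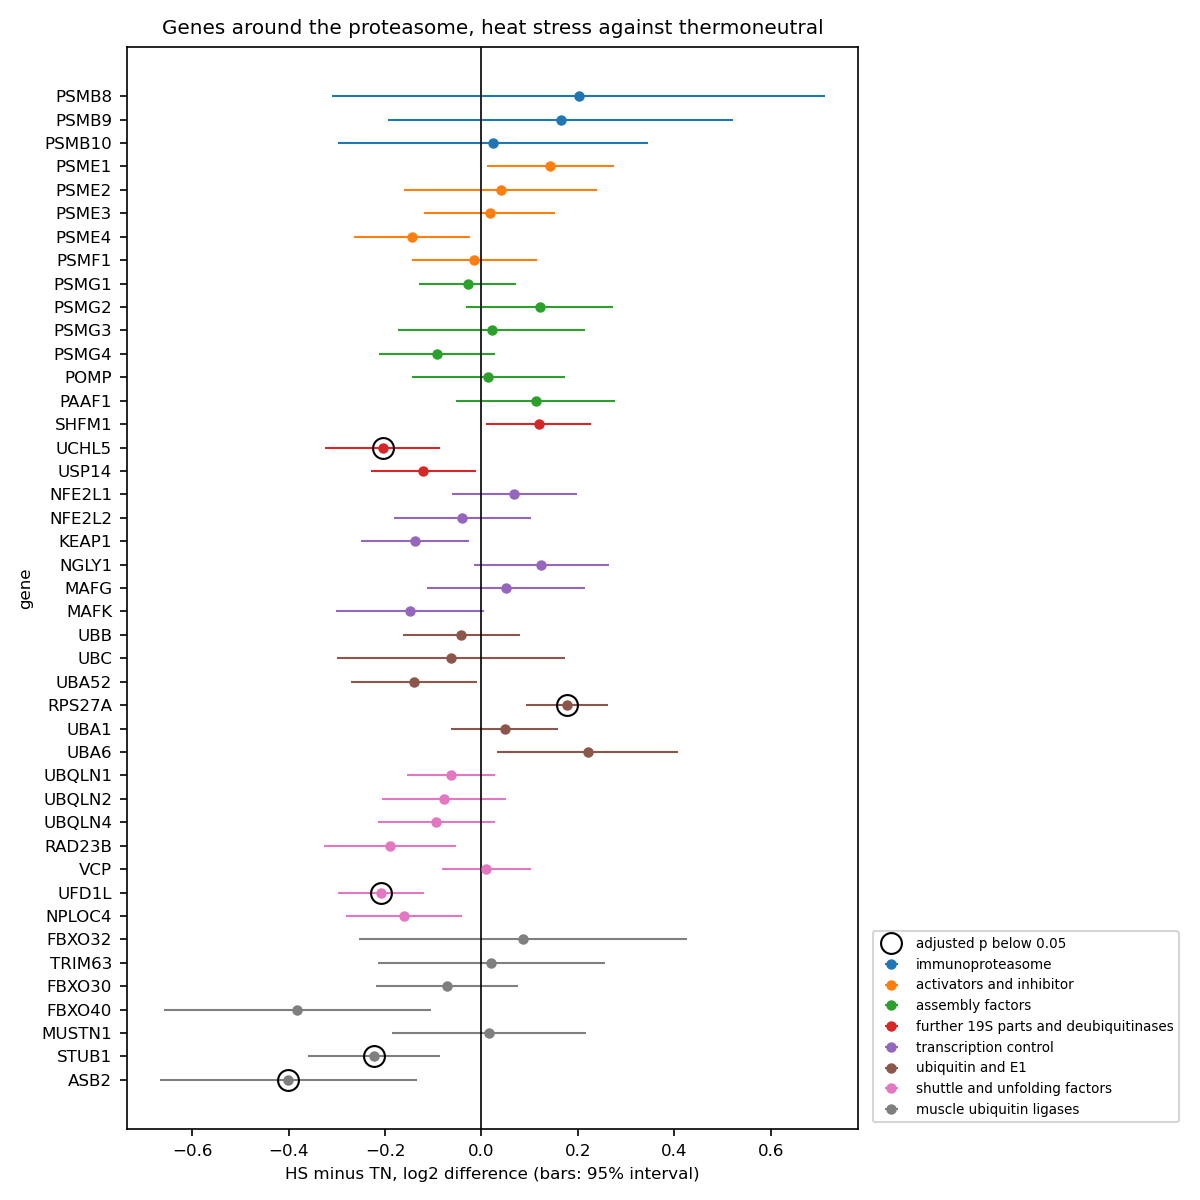
HS minus TN log2 difference (x axis) of the 43 measured genes around the proteasome (y axis), coloured by list, with bars for the 95% interval and rings around genes with an adjusted p below 0.05. RPS27A lies above zero, and UCHL5, UFD1L, STUB1 and ASB2 below it.

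Between Creole and Large White 3 of the 43 genes were called, against 3.64% of kept probes. FBXO32 ranged from 12.54 to 13.95 (median 13.44) in Creole and from 11.85 to 13.24 (median 12.73) in Large White, and was higher in Creole by 0.72 (SE 0.20, adjusted p = 0.0376 by limma), with 3 of 5 probes called. NGLY1, the glycanase that activates NFE2L1, was higher in Creole by 0.32 (SE 0.08, adjusted p = 0.0248 by limma) on its brightest probe, 1 of 7 called. PSMG4, a core assembly chaperone, differed by -0.30 (SE 0.07, adjusted p = 0.0117 by limma).

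PSMC3IP, which functions in meiotic recombination, was dim on the probe named in capitals, with a mean of 5.63 and a signal well above background on 17 arrays, and differed there by 0.02 (SE 0.11) between HS and TN. A PSMC3IP probe named in another letter case, O2029, was well above background on all 35 arrays with a mean of 7.55 and differed by -0.03 (SE 0.12). PSMD5 had a mean of 5.14 and was not tested.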

How the data were processed

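Cy3-labelled cRNA was hybridised by the authors to Agilent pig arrays in 1 colour, and Agilent Feature Extraction 10.10.1.1 extracted the spots. The deposited files hold, for each spot, its intensity on a linear scale and quality flags, and the deposited value table holds log2 values that the authors quantile-normalised. Here the median intensity was quantile-normalised over non-control spots without background subtraction, log2 was taken, 105 spots flagged as outliers were set to missing, and spots of a probe were averaged. A probe was retained where 75% or more of the arrays in some group read it well above background (41517 probes). Models in limma 3.58.1 (R 4.3.3) covered all kept probes and 35 arrays, with breed and temperature as additive terms, and with 1 mean per group for within-breed differences and the interaction F-test. P-values were adjusted by the Benjamini-Hochberg method at 0.05. The study's pen, slaughter day and parent effects are not in the labels and could not be fitted. Groups came from the sample labels.

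Values were given for PSMB5, PSMB6 and PSMB7 (levels and differences), for genes called in a contrast and for the smallest interaction p-values. They were also given for PSMB8, PSMB9, PSMB10, PSME1, PSME2, POMP, NFE2L1, NFE2L2, FBXO32, TRIM63 and called genes of the lists. Several of these, such as PSMB9, UCHL5 and PSMG4, were given by their difference and SE without levels. Members and lists were chosen with earlier results of these data known. PSMC2, PSMD4, PSMD3, PSMC1, PSMB3, PSMD10, PSMD8, single called probes and the lower-case names were described after their values were seen. The steps were tested on simulated data. Alternatives covered scaling, background correction, the value table, the filter, slide, array weights, brightness, leukocyte markers, probe summary, naming and leaving out each array.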

Additional observations from a re-analysis of the deposited data

Results flagged for a closer look

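Among 48 gene and group combinations examined for a single animal far from the others, 3 stood apart, where chance gives about 2.4 (1 in 20). PSMD4 in Large White TN had replicate 1 lowest at 12.82, with the next animal at 13.21, a gap of 0.7 of the group's range. PSMC3IP, no proteasome subunit, had on its dim probe named in capitals replicate 6 highest in Large White TN (6.24 against 5.70, a gap of 0.663 of the range) and replicate 5 highest in Large White HS (6.75 against 5.82, a gap of 0.631).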

How the results depend on the processing

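The counts of proteasome genes called depended on the processing. With 75th percentile scaling 4 genes were called between HS and TN (PSMA3, PSMB6, PSMD3, PSMD4), 1 in Creole (PSMB6) and 2 between Creole and Large White (PSMB6, PSMC1). With the processed signal these were 3 (PSMB6, PSMD3, PSMD4), 1 and 2. Between HS and TN, normexp called 1 (PSMD3), array weights 2 (PSMC2, PSMD3), the leukocyte covariate 1 (PSMD14) and names in any letter case 1 (PSMD7, chosen after seeing the data). Array weights also called 1 gene in Large White (PSMD3), 1 between Creole and Large White (PSMC1) and 1 between F1 and Creole (PSMC1), where the leukocyte covariate called 1 (PSMC1). Between Creole and Large White, slide as a fixed block and the brightness covariate called 2 each, and the leukocyte covariate 3. Median scaling, slide as a random block, the mean of all probes and naming by accession called 1 each. Naming by accession found only 10 proteasome gene names, against 30 by capitals. Of all kept probes, the share called between HS and TN was 16% as reported and with normexp, 22.4% with 75th percentile scaling, 17.5% with the processed signal, 22.1% with array weights, 5.51% with the leukocyte covariate and 5.04% with the brightness covariate. Between Creole and Large White it ran from 2.17% to 5.09% over the alternatives fitted to all arrays. Leaving out single arrays gave 0 to 2 calls between HS and TN and 0 to 2 between Creole and Large White. Counts for HS in F1, the interaction, F1 against Large White and F1 against the midpoint were 0 under every alternative run. Signs reversed for some HS minus TN differences. PSMD13 was -0.0887 with 75th percentile scaling, -0.0149 with median scaling, -0.0854 with the processed signal, -0.0123 with the leukocyte covariate and -0.0109 as the mean of its probes. PSMC1 was -0.00631 with 75th percentile scaling, -0.0192 with the processed signal, -0.123 with the leukocyte covariate and -0.0519 as the mean of its probes. With median scaling PSMB5 was 0.0244, PSMB7 0.00222 and PSMB3 0.0147. With spike-in scaling PSMB5 was 0.102, PSMB7 0.0795, PSMB3 0.0920 and PSMC6 O9672 0.0239. PSMB5 was 0.00199 with the brightness covariate and 0.0487 with the leukocyte covariate, and PSMB7 ran from -0.0366 to 0.00233 with single arrays left out. The cause was not tested. The share of all called probes higher in HS was 48.2%, and 27.2%, 56.7%, 86.6% and 37.5% with 75th percentile, median and spike-in scaling and the processed signal. No paired analysis was possible because the labels carry no replicate numbers that pair animals. PSMA3, PSMB11 and PSMD3 were each read by 1 dim probe, which limits them.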
